A study of Felis catus with 3 samples.

Results

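A set of 7 genes with opposite known roles in programmed cell death was examined in cultured feline adipose-derived mesenchymal stem cells (ASCs). The set held 4 survival genes (TPT1, HSPA9, YWHAH and TMBIM1) and 3 death-promoting genes (BAX, BAD and DDIT3), out of 21529 genes measured. The genes were chosen by symbol, and the symbols were tied to Ensembl identifiers through the annotation columns of the study's gene table. Gene expression was measured by strand-specific, poly(A)-selected RNA sequencing of 3 untreated cultures, each grown from the fat of its own donor cat and sequenced as 1 library. The cultures were primary, undifferentiated cells at passages 3 to 4 in medium with 10% fetal bovine serum, and they are called cultures 1, 2 and 3 in the order of the sample records. No cat's genotype, age or strain was given, and the study's cats included both specific pathogen-free and client-owned animals. There was 1 condition and no replicate library of any culture. The spread is therefore the SD over cats, no test between cultures was possible, and differences between cultures could not be set against technical error.

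Apoptosis through mitochondria is decided by the BCL2 protein family. BAX forms pores in the outer mitochondrial membrane, and BAD neutralises the family's protective members until it is phosphorylated and held in the cytosol by 14-3-3 proteins such as the product of YWHAH. TPT1 encodes a small, growth-related protein (TCTP) that protects from BAX-dependent death, TMBIM1 belongs to a family of membrane proteins related to BAX inhibitor, and HSPA9 encodes mortalin, the main chaperone of protein import into the mitochondrial matrix. DDIT3 encodes the transcription factor CHOP, which is low in unstressed cells and is induced by ATF4 when unfolded proteins gather in the endoplasmic reticulum or amino acids run short. ASCs are used in cell therapy, where the survival of the transferred cells matters.

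The labelled cell type was checked on fixed marker lists, of which not all genes had a symbol. Only 1997 rows of the study's gene annotation were available, for 21529 genes measured. Here and below, a gene that these rows did not name is said to have no symbol. ENG, which encodes the ASC surface protein CD105, was at 72.5, 117 and 73.9 FPKM (fragments scaled to transcript length in kilobases and to library size) in cultures 1, 2 and 3. Of the 7 listed ASC surface markers 2 had a symbol. The other, MCAM, was uneven, at 14.4, 79.9 and 16.0 FPKM. The 10 of 13 leukocyte markers found summed to between 6.54 and 9.84 FPKM per culture, and CD37 made up most of this at 5.03 to 7.70 FPKM. The leukocyte genes CD2, ITGB2, CD163, SPI1 and CD14 were each at 0.88 FPKM or less in every culture. The 3 of 8 endothelial markers found, TEK, FLT4 and LYVE1, summed to between 1.58 and 2.31 FPKM. The defining genes THY1, CD44, NT5E, PTPRC and PECAM1 were not analysed here because the available rows did not name them. The libraries came from whole cultures, so fewer cells with a transcript and less transcript per cell cannot be told apart.

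All 7 genes were expressed at 15 FPKM or more in all 3 cultures, a level reached by 22.1% of all 21529 genes. The 4 leading genes kept their order in every culture, with TPT1 above HSPA9, YWHAH and then BAX. In cultures 1 and 3, TMBIM1, BAD and DDIT3 followed in this order, whereas in culture 2 DDIT3 stood above TMBIM1 and BAD. The ranges over the cultures did not overlap between neighbours from TPT1 down to TMBIM1. They overlapped between TMBIM1 and BAD, although TMBIM1 was the higher in 3 of 3 cultures, and between BAD and DDIT3. Of the 7 genes, 3 (TPT1, HSPA9 and YWHAH) reached 100 FPKM in every culture, a level reached by 3.59% of all genes. The genes were chosen with their levels known, so the shares over all genes only give a scale and test nothing.

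**Figure D1:**
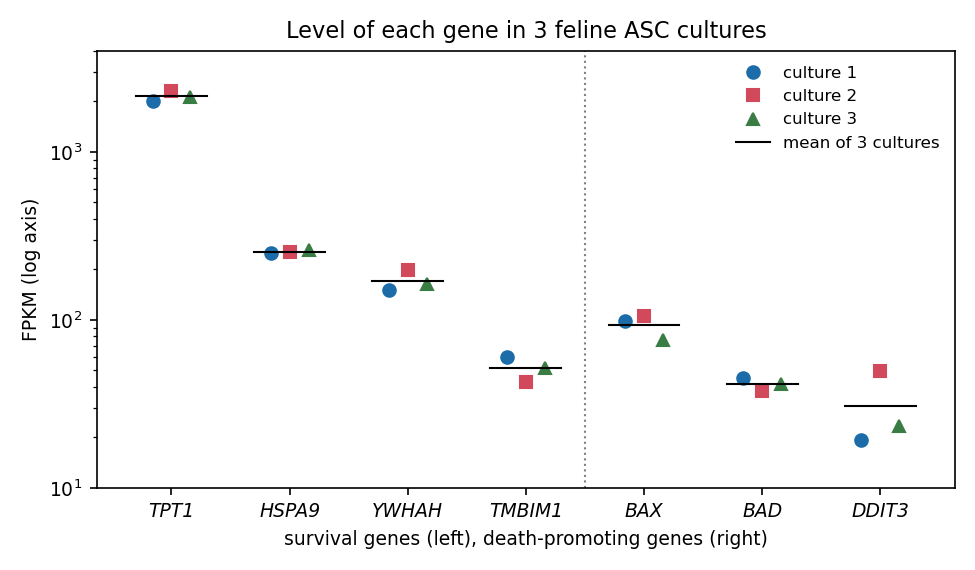
FPKM of each gene (log axis) in culture 1 (circles), 2 (squares) and 3 (triangles), with the mean of the 3 cultures as a bar. TPT1 lies at 2012 FPKM or more in every culture, and DDIT3 has the widest spread, with culture 2 at 49.6 FPKM above 19.3 and 23.2 FPKM.

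TPT1 was by far the most abundant of the 7 genes. It was at 2012 FPKM in culture 1, 2296 FPKM in culture 2 and 2120 FPKM in culture 3, a mean of 2143 ± 143 FPKM (SD, n = 3 cultures) that ranked 36th among all genes. Its highest culture was 1.14 times its lowest, and its level was 8.41 ± 0.59 times that of HSPA9 in the same library. The gene (ENSFCAG00000002107) lies on chromosome A1 from 25331835 to 25335330 of the assembly Felis Catus 8.0. Mammalian genomes carry many processed copies of TPT1, and how reads with several positions were shared is not given in the sources used here, so its level is uncertain to that extent.

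HSPA9 (ENSFCAG00000001718, chromosome A1, 115535155 to 115551307) was the steadiest of the 7 genes in FPKM, though not under the other scalings given below. Its level was 251 FPKM in culture 1, 252 FPKM in culture 2 and 261 FPKM in culture 3, with a mean of 255 ± 5.79 FPKM (SD, n = 3). The highest culture was 1.04 times the lowest, and of the 5324 genes with a mean of at least 15 FPKM only 4.70% had a smaller ratio. HSPA8, the cytosolic member of the same chaperone family, was at 854, 786 and 976 FPKM, so that HSPA9 stood at 0.294 ± 0.027 times HSPA8. The other listed mitochondrial chaperones and proteases with a symbol were lower than HSPA9, while HSPD1 and HSPE1 were not analysed here. STOML2, a scaffold of the inner membrane, had a mean of 51.8 ± 6.88 FPKM, and DNAJC11, a partner of the inner membrane organising complex, had 27.7 ± 1.85 FPKM. Of 14 genes on that list 6 had a symbol, and 4 had a mean of 15 FPKM or more. None of these 4 differed 1.5-fold between cultures, beside 21.6% of the 5324 genes, and so few genes cannot be told apart from that share. Their median ratio was 1.21, beside 1.22 over the 5324 genes.

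YWHAH (ENSFCAG00000000603, chromosome D3, 22909582 to 22910251) was at 151, 198 and 164 FPKM in cultures 1, 2 and 3, with a mean of 171 ± 24.2 FPKM (SD, n = 3). Culture 2 was the highest, at 1.31 times culture 1. The gene model spans 670 bp, whereas YWHAH in the RefSeq annotation of the later assembly F.catus_Fca126_mat1.0 spans 11466 bp, so the value covers a part of the gene. The only other 14-3-3 gene with a symbol, YWHAG, was at 154, 163 and 154 FPKM, which lies close to YWHAH. Their ratio ran from 0.985 in culture 1 to 1.22 in culture 2. Set against BAD, the protein that 14-3-3 holds in the cytosol, YWHAH was higher by 3.38, 5.25 and 3.96 times in the same 3 libraries.

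TMBIM1 (ENSFCAG00000002374) was the lowest survival gene. It was at 59.9 FPKM in culture 1, 42.9 FPKM in culture 2 and 52.0 FPKM in culture 3, with a mean of 51.6 ± 8.50 FPKM (SD, n = 3). Culture 2 was thus the lowest culture for TMBIM1 and the highest for YWHAH and TPT1. Its locus on chromosome C1, 202197939 to 202262494, was shared in the study's table with PNKD, which was at 28.1, 23.1 and 20.9 FPKM, and with AAMP, at 48.0, 53.7 and 49.7 FPKM. TMBIM1 also overlaps PNKD in the RefSeq annotation, and how fragments of overlapping genes were divided is not given in the sources used here. GHITM, a mitochondrial member of the TMBIM family, was at 163, 188 and 168 FPKM and thus exceeded TMBIM1 by 3.44 ± 0.84 times. The other 4 members of the family list were not analysed here.

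BAX was the highest death-promoting gene in every culture. Its level was 98.4 FPKM in culture 1, 105 FPKM in culture 2 and 76.3 FPKM in culture 3, with a mean of 93.2 ± 15.0 FPKM (SD, n = 3). Culture 3 stood below the other 2 cultures, and the highest culture was 1.38 times the lowest. The gene (ENSFCAG00000000258) lies on chromosome E2 from 8366735 to 8370296. It exceeded BAD by 2.20, 2.78 and 1.84 times in cultures 1, 2 and 3.

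BAD (ENSFCAG00000000508, chromosome D1, 109049173 to 109058772) overlaps the protein-coding gene GPR137 in the RefSeq annotation. Whether fragments of GPR137 entered the BAD value was not tested. BAD varied less than BAX in FPKM, at 44.8, 37.7 and 41.4 FPKM, with a mean of 41.3 ± 3.55 FPKM (SD, n = 3). Its highest culture, culture 1, was 1.19 times its lowest, culture 2, a smaller ratio than the median of 1.22 over the 5324 genes. With each library rescaled to the same sum (TPM), the ratio was 1.32 for both BAD and BAX, above the median of 1.23. After quantile normalization it was 1.21 for BAD and 1.31 for BAX, beside a median of 1.22. The comparison thus turned in TPM but not after quantile normalization. BNIP1, which carries a BH3 motif and acts in membrane fusion at the endoplasmic reticulum, was the only other gene of the pro-apoptotic list with a symbol. It was at 10.3, 10.9 and 9.33 FPKM. The available annotation rows named none of the 6 protective BCL2 family genes on the list (BCL2, BCL2L1, BCL2L2, MCL1, BCL2A1 and BCL2L10). The balance between the pro-apoptotic genes and their direct antagonists was therefore not analysed here.

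DDIT3 differed the most between cultures. It was at 19.3 FPKM in culture 1, 49.6 FPKM in culture 2 and 23.2 FPKM in culture 3, with a mean of 30.7 ± 16.5 FPKM (SD, n = 3). Culture 2 stood apart at 2.57 times culture 1 and 2.14 times culture 3, whereas culture 3 was 1.20 times culture 1. An FPKM ratio of 2 or more in favour of culture 2 was found for 3.19% of the 5324 genes against culture 1 and for 3.17% against culture 3. On the log2(FPKM + 1) scale the differences were 1.32 and 1.06. Without culture 2, the remaining difference between cultures was 0.25.

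The gene model of DDIT3 (ENSFCAG00000002084) spans 622 bp on chromosome B4, from 86246864 to 86247485, while the RefSeq gene in F.catus_Fca126_mat1.0 spans 4021 bp and overlaps MARS1. In the study's table the MARS locus ended 233 bp before that of DDIT3. MARS, which encodes the methionyl-tRNA synthetase, was at 42.8, 45.5 and 42.6 FPKM in cultures 1, 2 and 3, a 1.07-fold range. MARS is also among the response genes of ATF4 and DDIT3 examined below. Whether fragments of the neighbouring gene entered the DDIT3 value was not tested. The ratio of DDIT3 to MARS was 0.451, 1.09 and 0.546 in the same order.

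The survival genes as a group lay above the death-promoting genes in every culture. The mean log2(FPKM + 1) of the 4 survival genes exceeded that of the 3 death-promoting genes by 2.53 in culture 1, 2.17 in culture 2 and 2.62 in culture 3, or 2.44 ± 0.24 (SD, n = 3). This corresponds to a ratio of geometric means of FPKM + 1 of 5.48 ± 0.86. In FPKM the survival mean was almost the same in all cultures, at 8.03, 8.06 and 8.04. This survival mean averaged over genes that differed in opposite directions. The log2 differences of culture 2 from culture 1 were 0.39 for YWHAH, 0.19 for TPT1, 0.01 for HSPA9 and -0.47 for TMBIM1. The death-promoting mean was 5.50, 5.89 and 5.42. The higher death-promoting mean in culture 2 rested on DDIT3. The mean of BAX and BAD alone was 6.076, 6.001 and 5.838, so that culture 2 was no longer the highest, and the difference became 1.96, 2.06 and 2.21, with the smallest gap in culture 1. TPT1 carried much of the difference, which was 1.44 ± 0.26 without it. The genes were chosen with their levels known, and genes are not replicates, so no test was made of this difference. The values of YWHAH and DDIT3 rest on gene models of 670 and 622 bp, shorter than their RefSeq genes. Their levels relative to the other genes are therefore also uncertain.

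Gene by gene, the survival gene was the higher in all 3 cultures for 10 of the 12 pairs of a survival and a death-promoting gene. The 2 exceptions both involved TMBIM1. BAX exceeded TMBIM1 by 1.64, 2.45 and 1.47 times in cultures 1, 2 and 3. TMBIM1 exceeded DDIT3 by 3.10 times in culture 1 and 2.24 times in culture 3, but stood at 0.865 times DDIT3 in culture 2. Ratios to BAX were 20.5, 21.9 and 27.8 for TPT1, 2.55, 2.40 and 3.43 for HSPA9, and 1.54, 1.89 and 2.15 for YWHAH. Culture 3 had the highest ratio for each of these genes. The ratios share BAX, which was lowest in culture 3, so they are not separate observations. TPT1 and YWHAH themselves were highest in culture 2, and HSPA9 in culture 3. Summed FPKM of the survival genes made up 0.398 to 0.408% of all FPKM per culture, compared with 0.0221 to 0.0279% for the death-promoting genes. Most of the survival sum was TPT1, whose level is uncertain. Without it the share was 0.0717 to 0.0750%, and the ratio of the sums fell from 16.1 ± 2.10 to 2.93 ± 0.42 (SD, n = 3).

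**Figure D2:**
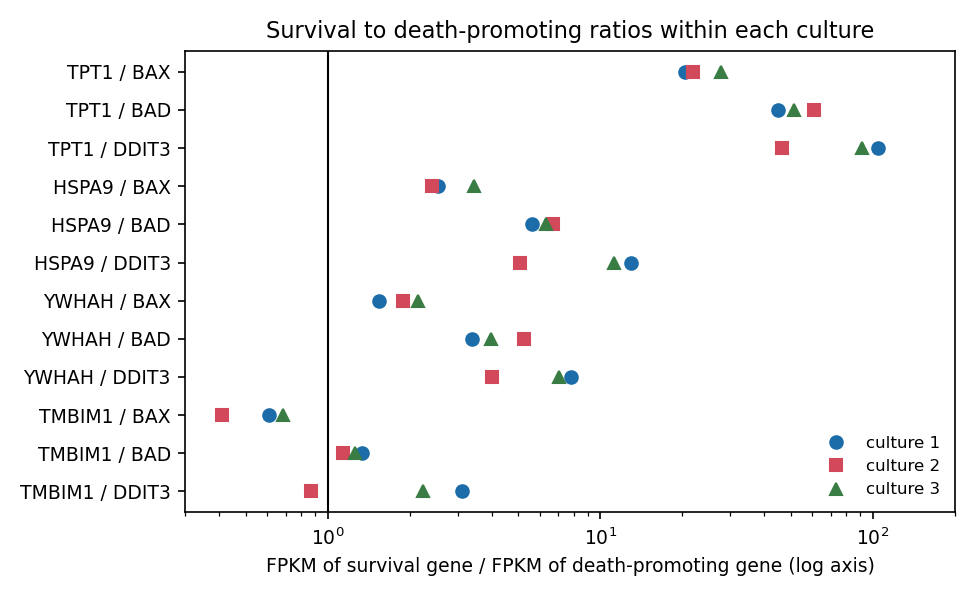
FPKM of each survival gene divided by that of each death-promoting gene in the same library (log axis), for culture 1 (circles), 2 (squares) and 3 (triangles), with equality as a vertical line. Only TMBIM1 / BAX and, in culture 2, TMBIM1 / DDIT3 (0.865) lie to the left of the line.

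The spread between cultures was next compared with that of other genes. Of the 7 genes, only DDIT3 had a highest-to-lowest FPKM ratio of 1.5 or more, a ratio that 21.6% of the 5324 genes with a mean of 15 FPKM or more reached. It was also the only one at a ratio of 2 or more, against 8.36% of these genes, and 247 genes had a larger ratio than DDIT3. The median ratio was 1.31 over the 7 genes, 1.22 over the survival genes and 1.38 over the death-promoting genes, beside 1.22 over the 5324 genes. TPT1, YWHAH, BAX and DDIT3 were highest in culture 2, TMBIM1 and BAD in culture 1, and HSPA9 in culture 3. Culture 2 was the highest culture for 43.1% of the 5324 genes, so 4 of 7 genes is close to this background.

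The order of the cultures depended in part on how the libraries were scaled. FPKM summed to 621797, 688297 and 636464 in cultures 1, 2 and 3. With each library rescaled to a sum of 1000000 (TPM), the median log2 difference of culture 2 from culture 1 over the 5324 genes moved from 0.03 to -0.12. On that scale the highest culture for BAX became culture 1, with 158 TPM against 153 in culture 2, and the lowest for HSPA9 became culture 2, as it also did after quantile normalization. The ratio of TMBIM1 between cultures 1 and 2 became 1.54, past the 1.5-fold limit, while that of TPT1 shrank to 1.03. TPT1 was then steadier than HSPA9, whose ratio was 1.12, and it was also steadier after quantile normalization, at 1.08 against 1.15. DDIT3 remained highest in culture 2, at 2.32 times culture 1 in TPM and 2.54 times after quantile normalization.

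**Figure D3:**
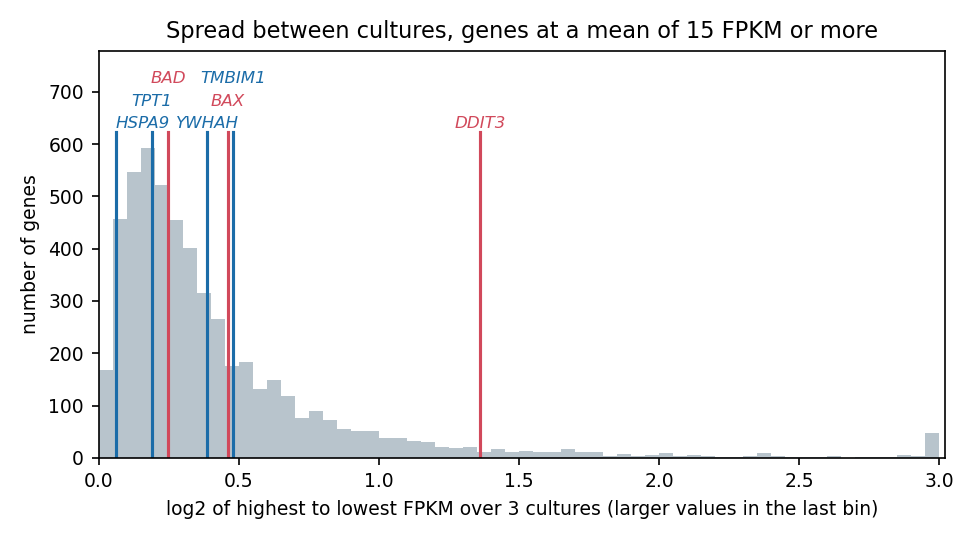
Histogram of the log2 ratio between the highest and lowest FPKM of the 3 cultures for the 5324 genes with a mean of 15 FPKM or more, with survival genes in blue and death-promoting genes in red. DDIT3 lies in the upper tail (95.3% of these genes had a smaller ratio) and HSPA9 near the lower end (4.70%).

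Because DDIT3 acts downstream of ATF4 in the response to endoplasmic reticulum stress and amino acid shortage, the genes of these responses were examined next. Of 19 sensors and factors of the unfolded protein response 3 had a symbol. Besides DDIT3 these were CREB3L2, a membrane-bound factor of the same response, at 19.5, 25.8 and 21.3 FPKM, and CREBRF, a regulator of CREB3 turnover, at 4.07, 2.24 and 2.42 FPKM. ATF4, ATF6, XBP1, ERN1 and EIF2AK3 were not analysed here.

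Of 33 response genes of ATF4 and DDIT3, 11 had a symbol and 10 had a mean of 15 FPKM or more. In FPKM, 8 of these 10 genes were highest in culture 2, beside 43.1% of all tested genes, but the margins were small. Their median log2 difference of culture 2 from culture 1 was 0.15, beside 0.03 over all tested genes. In TPM only 2 of the 10 were highest in culture 2, beside 26.1% of all tested genes, and after quantile normalization 7 were, beside 36.1%, so the count depended on the scaling. The highest of them were SHMT2, the mitochondrial serine hydroxymethyltransferase, with 202, 249 and 244 FPKM, and EPRS, a tRNA synthetase, with 144, 169 and 152 FPKM. ALDH1L2, a mitochondrial folate enzyme, was at 122, 142 and 134 FPKM. Only ALDH18A1, which makes a precursor of proline, differed 1.5-fold in the FPKM values, at 45.4, 69.8 and 61.4 FPKM. This was 1 of 10 genes, beside 21.6% of all tested genes, and in TPM 0 of the 10 reached that ratio. ALDH18A1 is named because it was the only one in FPKM, after its values were seen.

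Most of the endoplasmic reticulum chaperones and degradation factors with a symbol were lowest in culture 1. HSPA5, HSP90B1 and CANX were among the listed genes not analysed here. All 14 of the 28 listed genes with a symbol had a mean of 15 FPKM or more, and 9 were highest in culture 3, 5 in culture 2 and 0 in culture 1, beside 28.5%, 43.1% and 28.4% of all tested genes. In TPM the counts were 10, 4 and 0, beside 32.2%, 26.1% and 41.7% of all tested genes. Culture 1 was the lowest for 12 of the 14 in FPKM, beside 34.6% of all tested genes, for 9 in TPM, beside 20.7%, and for 11 after quantile normalization, beside 32.3%. The others were lowest in culture 2. CALR, the calcium-binding chaperone calreticulin, was at 556, 677 and 708 FPKM. KDELR3, a retrieval receptor for chaperones, was at 220, 290 and 232 FPKM, and its relative KDELR1 was at 144, 156 and 156 FPKM. FKBP11, a prolyl isomerase of secretory cells, was at 37.5, 41.9 and 84.7 FPKM. It was the only one with a 2-fold range, beside 8.36% of all tested genes. HYOU1 and PDIA5, named after their values were seen, were the other 2 past 1.5-fold, at 71.4, 109 and 89.2 FPKM and at 19.9, 30.7 and 30.9 FPKM. A ratio of 1.5 or more was thus reached by 3 of the 14 genes, close to the 21.6% of all tested genes. In TPM and after quantile normalization, 2 of the 14 reached it. Across all of these stress genes other than DDIT3, 25 had a mean of 15 FPKM or more. The largest log2 difference of culture 2 from culture 1 among them was 0.61, for ALDH18A1, beside 1.32 for DDIT3.

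**Figure D4:**
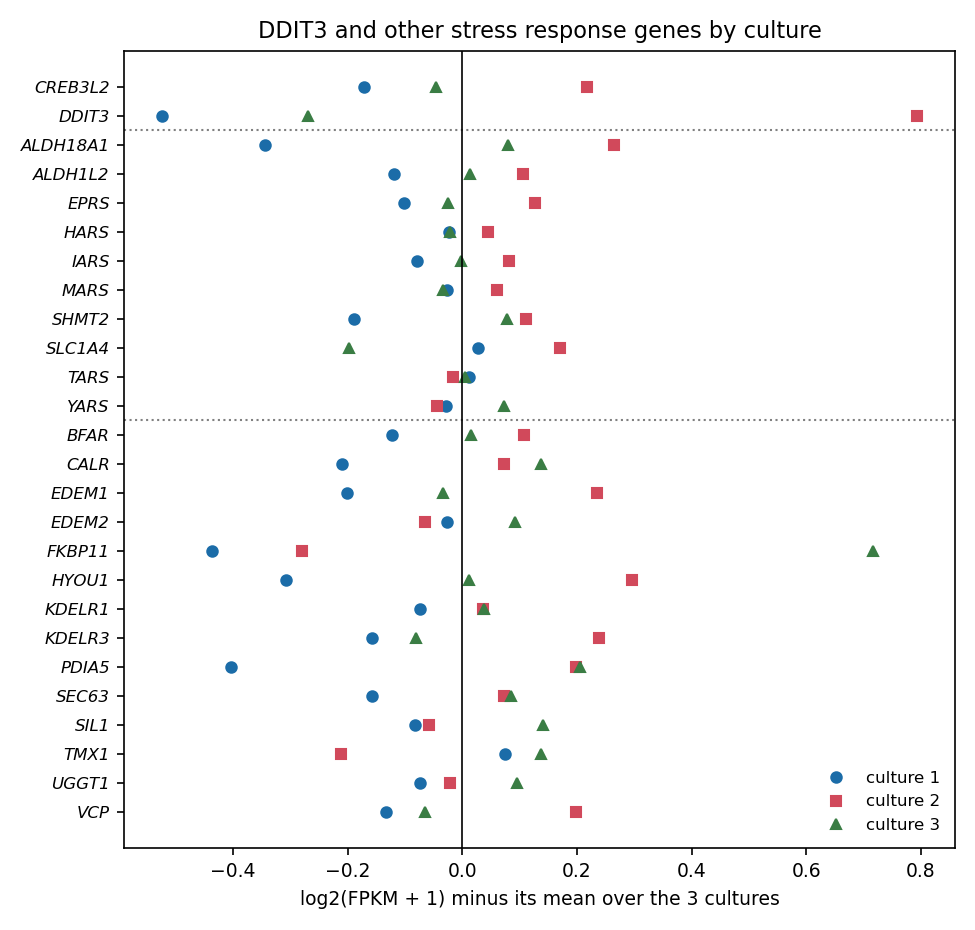
log2(FPKM + 1) of each gene minus its mean over the 3 cultures, for culture 1 (circles), 2 (squares) and 3 (triangles), with unfolded protein response factors at the top, ATF4 and DDIT3 response genes in the middle and endoplasmic reticulum genes at the bottom. DDIT3 has the widest range, 1.32 between cultures 2 and 1, and FKBP11 is the gene that stands out in culture 3.

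The genes whose profile over the cultures lay nearest to that of DDIT3 were sought among the 615 genes with a symbol and a mean of 15 FPKM or more. By Euclidean distance between centred log2(FPKM + 1) values, the nearest was SMTN at 0.06, followed by ACTN1 at 0.07 and TNS1 at 0.19. SMTN, which encodes the smooth muscle protein smoothelin, was at 44.7, 112 and 56.3 FPKM. ACTN1, the actin cross-linker alpha-actinin, was at 296, 689 and 346 FPKM, and TNS1, the focal adhesion protein tensin, was at 82.9, 176 and 84.4 FPKM. With 3 cultures such nearness describes only that the same culture was high by a similar factor. MCAM, a surface marker of perivascular stromal cells, was also highest in culture 2, at 14.4, 79.9 and 16.0 FPKM, as was ENG. The part of these genes, or of the cells that express them, in the DDIT3 value of culture 2 was not tested.

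The execution and receptor arms of apoptosis were covered by few named genes. Of 18 genes of the apoptosome, caspases and nucleases, 4 had a symbol, and none was a caspase. PDCD5, a gene linked to programmed cell death, was at 82.9, 94.1 and 94.7 FPKM, and AVEN, an inhibitor of apoptosome assembly, was at 18.4, 26.4 and 22.7 FPKM. APIP, an APAF1-interacting enzyme of methionine salvage, was the only one to differ 2-fold, with culture 1 at 48.6 FPKM above 27.7 and 21.4 FPKM. It was 1 of 3 genes on this list with a mean of 15 FPKM or more, beside 8.36% of all such genes. Of the 12 genes of the death receptor list 4 were found, and FEM1B, a substrate receptor of a ubiquitin ligase, was the highest at 25.6, 27.1 and 22.9 FPKM. TRAF2, an adaptor of tumour necrosis factor receptors, was at 6.77, 6.10 and 7.90 FPKM, and RELT, a receptor of that family, was at 0.53 FPKM or less. The 6 inhibitor of apoptosis genes were not named in the available annotation rows and were not analysed here.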

How the data were processed

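Strand-specific mRNA libraries were prepared from 200 ng of total RNA of 3 feline ASC cultures. The authors aligned reads to ICGSC Felis Catus 8.0 with HISAT and deposited normalized FPKM values per gene from Cufflinks and Cuffnorm. Program versions, annotation release and Cuffnorm settings are not given in the sources used here. FPKM are not counts, so the fragments behind a value are unknown and no intervals or floors are given. The lowest values move in steps of single fragments, and the commonest step ratio was 1.10 for culture 2 over culture 1 and 1.41 for culture 2 over culture 3. Culture 3 was therefore probably sequenced the deepest.

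Symbols and loci came from the study's gene table, of which 1997 rows were available, 1811 of them with a symbol. RefSeq entries without Ensembl identifiers gave only neighbours and gene spans. The 7 genes and all lists were chosen with earlier results of these data known. Of 234 listed symbols 83 were matched. Ratios, SDs, log2(FPKM + 1) differences and shares over genes with a mean of 15 FPKM or more were computed in Python 3.11.15. This used numpy 2.4.6 and pandas 2.3.3, and plots used matplotlib 3.10.9. Only the ratio, the highest culture and the TPM and quantile scalings were checked on simulated data. The simulated noise was set below the spread between these cultures. No sample was dropped. Besides the 7 genes, the 3 highest genes of each list and those with a mean of 15 FPKM or more and a 2-fold range were named, and any BCL2 family, TMBIM, 14-3-3 or marker gene could be. The 3 nearest profiles were named for a member with a 2-fold range. Alternatives were another pseudocount (0.1), TPM, quantile normalization, other thresholds, leaving out each culture and leaving out TPT1 or DDIT3.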

Additional observations from a re-analysis of the deposited data

How the results depend on the processing

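The mean log2 difference between survival and death-promoting genes (2.44) kept its sign under every alternative run. It was 1.44 without TPT1, 2.07 without DDIT3 (chosen after seeing the data) and 2.18 with medians over the genes, and it ranged from 2.35 to 2.58 when each culture was left out. The number of the 7 genes with a ratio of 1.5 or more rose from 1 to 2 in TPM, through TMBIM1, and ranged from 0 to 1 when each culture was left out, being 0 without culture 2. With a threshold of 15 FPKM, 7 genes reached it in every culture, compared with 3 at 100 FPKM. The log2 difference of DDIT3 between its highest and lowest culture (1.32) was 1.19 in TPM and ranged from 0.25 to 1.32 when each culture was left out, with the lowest value without culture 2. Among all genes above 0 in every culture, 39.8% had a ratio of 1.5 or more, compared with 21.6% of those with a mean of 15 FPKM or more. The planned comparison of symbol sources gave no value, because the RefSeq table held no Ensembl identifiers. No paired analysis was possible because the 3 cultures form 1 group. The lack of counts and of replicate libraries limits every difference between cultures to a description.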

Other observations

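The cytosolic chaperones and cochaperones with a mean of 15 FPKM or more all stayed within a 1.5-fold range. Of 28 listed genes 15 had a symbol and 13 had a mean of 15 FPKM or more, and 0 of these 13 reached a ratio of 1.5, beside 21.6% of all tested genes. Their median highest-to-lowest ratio was 1.12, beside 1.22 over all tested genes, but it was 1.24 for HSPA8, 1.36 for FKBP4 and 1.38 for SGTB. Below that mean, DNAJB5 ranged 4.49-fold, at 2.75, 7.79 and 1.74 FPKM in cultures 1, 2 and 3. FKBP4, SGTB and DNAJB5 are named after their values were seen. HSPA8, the constitutive cytosolic chaperone, had a mean of 872 ± 96.0 FPKM (SD, n = 3), HSP90AA1 had 211 ± 9.77 FPKM, and TCP1, a subunit of the chaperonin that folds actin and tubulin, had 131 ± 1.37 FPKM. Culture 3 was the highest culture for 9 of the 13 genes in FPKM, in TPM and after quantile normalization, beside 28.5%, 32.2% and 33.5% of all tested genes.

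Of the 14 listed genes around p53, 3 had a symbol. TP53I13 was at 19.6, 25.7 and 22.7 FPKM in cultures 1, 2 and 3, and XPC, a DNA damage sensor, was at 13.97, 9.90 and 11.3 FPKM. TP63 was listed at 0 in every culture.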
